A study of Homo sapiens with 8 samples.

Results

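The long arm of chromosome 13 carries a broad stretch from band q21 to q31 that is poor in genes. All accessible regions that overlap chr13:53000000-95000000 (build hg19) were taken as its members. The 8 deposited peak lists were merged wherever peaks shared at least 1 bp, which gave 561 regions in the domain, of 80588 on chromosomes 1 to 22 and X. The rest of chromosome 13 held 1658 regions. The members were selected on position, while the domain itself was chosen by its clusters of regions called in every KOSC-2 library and in no HSC-3 library. The assay was ATAC-seq, which marks accessible chromatin through the Tn5 transposase, an enzyme that places adapters into open DNA. KOSC-2, labelled radiosensitive, and HSC-3, labelled radioresistant, are established lines from oral squamous cell carcinoma. Cells of each line received 0 or 8 Gy of radiation and were frozen 24 hours later. Each of the 4 groups (KOSC-2 0 Gy, KOSC-2 8 Gy, HSC-3 0 Gy and HSC-3 8 Gy) had 2 libraries, numbered as replicates in the labels. The labels name no genetic change, nor do they tell if both libraries of a group stem from separate cultures. A p-value thus measures the spread between libraries, which may be technical. A single line stands for each class of radiosensitivity, so a difference between the lines cannot be assigned to it. The labelled cell type was not checked against marker genes, because gene positions of this build were not used here.

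Gene-poor domains of this kind are mostly packed in closed chromatin, and many of the genes they hold are long and active in the nervous system. Among the genes of 13q21 to q31, PCDH9, PCDH17 and PCDH20 encode protocadherins, which are adhesion proteins best known from neurons. SLITRK1, SLITRK5 and SLITRK6 encode transmembrane proteins of neurons, KLHL1 a kelch-like protein of the brain, DACH1 a developmental transcription factor, and GPC5 and GPC6 glypicans, which carry heparan sulfate at the cell surface. KLF5, a transcription factor of proliferating epithelium, and SPRY2, an inhibitor of receptor tyrosine kinase signalling, lie in a denser stretch in the middle.

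The label of a gene-poor domain was checked by gene order in RefSeq (GRCh38.p14), which was used for names and neighbours and not for positions. Of 338 protein-coding genes listed on chromosome 13, 48 (14.2%) stand in the order from OLFM4 to GPC6, while the domain makes up 44.0% of the 95.6 Mb between the outermost peaks of the chromosome. These landmarks need not stand at the edges of the domain, so genes near its edges may be missing from the 48. Between PCDH9 and KLHL1, KLHL1 and DACH1, SPRY2 and SLITRK1, and SLITRK5 and GPC5 the table lists 0 further protein-coding genes, and between DACH1 and SPRY2 it lists 24. The domain was divided by position into 12 bands, each named after landmark genes. The placing of these names on hg19 is background knowledge, and the order of all 19 landmarks was the same in RefSeq. A band's name, also in phrases such as from KLF5 to SPRY2, stands for its span in Mb. Regions of a band may lie outside the genes that name it.

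The sequences at the starts of 4 landmark genes show promoters of the domain that differ in their number of CpG dinucleotides. They run from 250 bases before to 50 after the start, 5′ to 3′ on the gene's own strand, which is the minus strand for all 4, and come from RefSeq (GRCh38.p14). Capitals mark each CG, a motif that reads the same on both strands. PCDH9 and SLITRK6 are landmarks of bands where HSC-3 lists had almost no peaks, KLHL1 of a band with few peaks in either line, and MYCBP2, which encodes a ubiquitin ligase, of a band open in both.
PCDH9: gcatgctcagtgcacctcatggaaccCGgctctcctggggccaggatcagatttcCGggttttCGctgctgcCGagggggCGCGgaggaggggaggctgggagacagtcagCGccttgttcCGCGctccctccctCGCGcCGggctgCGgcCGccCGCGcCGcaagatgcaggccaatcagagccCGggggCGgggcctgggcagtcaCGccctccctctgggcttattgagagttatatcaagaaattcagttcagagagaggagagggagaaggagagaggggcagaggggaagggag
SLITRK6: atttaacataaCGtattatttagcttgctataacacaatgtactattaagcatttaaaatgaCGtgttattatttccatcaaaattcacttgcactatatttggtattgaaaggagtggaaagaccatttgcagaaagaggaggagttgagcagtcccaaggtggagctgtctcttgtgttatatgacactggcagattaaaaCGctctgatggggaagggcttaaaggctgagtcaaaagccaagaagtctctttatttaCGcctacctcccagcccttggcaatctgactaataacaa
KLHL1: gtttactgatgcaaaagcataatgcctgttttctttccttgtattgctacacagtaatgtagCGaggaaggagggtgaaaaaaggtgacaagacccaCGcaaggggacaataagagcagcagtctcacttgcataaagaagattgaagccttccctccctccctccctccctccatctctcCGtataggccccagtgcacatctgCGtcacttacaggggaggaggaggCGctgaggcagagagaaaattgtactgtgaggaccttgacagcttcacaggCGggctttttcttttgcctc
MYCBP2: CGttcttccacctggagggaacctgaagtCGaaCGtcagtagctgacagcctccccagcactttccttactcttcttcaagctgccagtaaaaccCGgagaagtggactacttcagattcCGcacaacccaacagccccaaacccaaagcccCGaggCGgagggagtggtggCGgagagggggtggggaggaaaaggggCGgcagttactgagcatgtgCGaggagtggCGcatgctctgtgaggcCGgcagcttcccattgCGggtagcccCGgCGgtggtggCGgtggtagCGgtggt
The PCDH9 start held 20 CG, MYCBP2 17, KLHL1 6 and SLITRK6 4, against a median of 14 over 35116 promoters of this length, of which 96.0% held at least 1. As many CG as at SLITRK6 or fewer were found in 29.6% of these promoters, and as many as at PCDH9 or fewer in 60.5%. The starts of PCDH9 and SLITRK6 lay on either side of that median. Peaks are on another build, so whether a peak covers any of these starts was not determined, and the sequence under the peaks is not used here.

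The lists held 22504 to 51693 peaks on chromosomes 1 to 22 and X. Depth, read from the lowest background of each list, was 20.2 to 64.8 reads per 10 kb. In HSC-3, replicate 2 of 0 Gy and replicate 1 of 8 Gy had the shortest lists (23490 and 22504 peaks). Both, along with replicate 1 of KOSC-2 at 0 Gy, had the lowest enrichment. Their median pileup at regions called in all 8 libraries was 34.7, 21.9 and 25.7 times the lowest background of the list, against 49.6 to 67.3 in the other 5. No list called a summit with fewer than 5 to 9 reads, depending on the library, and weaker open regions were not detectable.

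Peaks were sparse in the domain in every library. The KOSC-2 lists had 255, 292, 352 and 254 peaks there (listed here and hereafter by dose, unirradiated ones leading, and then by replicate number), and those of HSC-3 had 187, 123, 99 and 194. The lowest KOSC-2 list stood above the highest HSC-3 list. Per Mb, KOSC-2 averaged 6.86 ± 1.10 peaks in the domain and 16.4 ± 1.73 in the rest of chromosome 13, and HSC-3 3.59 ± 1.12 and 13.2 ± 3.88 (SD, n = 4 each). The domain was lower in 8 of 8 libraries, by 9.55 peaks per Mb on average (exact two-sided permutation test with domain and rest exchanged within libraries, p = 0.00781, the smallest possible, 0.0156 after Benjamini-Hochberg adjustment over 4 measures). Libraries of a line share its genome, so the 8 libraries stand for 2 lines. Absent HSC-3 calls were part of the choice of the domain, so the HSC-3 values in this test are not independent of that choice. In KOSC-2 alone the domain was lower in 4 of 4 libraries, with a mean difference of -9.54 peaks per Mb.

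**Figure D1:**
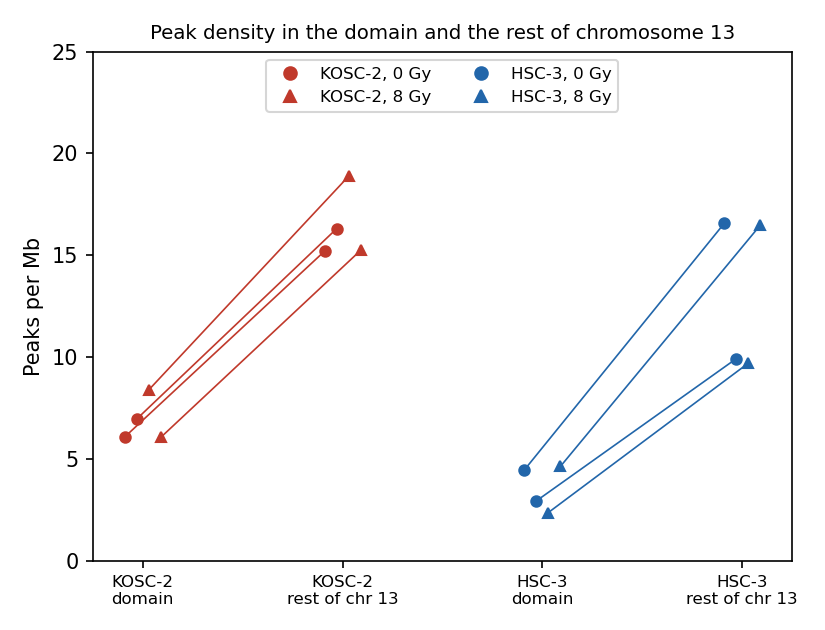
Peaks per Mb (y axis) in the domain and in the rest of chromosome 13 for each library, joined by a line; circles are 0 Gy and triangles 8 Gy. All 8 lines rise, and the domain value is 6.05 to 8.38 in KOSC-2 and 2.36 to 4.62 in HSC-3.

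The ratio of both densities did not overlap between the lines in the full lists. The domain had 0.400, 0.427, 0.444 and 0.397 of the density of the rest of chromosome 13 in the KOSC-2 lists and 0.269, 0.295, 0.243 and 0.281 in the HSC-3 lists. As a share of all peaks of a list, the domain held 0.647% ± 0.0360 in KOSC-2 and 0.465% ± 0.0393 in HSC-3 (SD, n = 4 each), while the rest of chromosome 13 held 1.98% ± 0.0991 and 2.18% ± 0.121. The domain was proposed after clusters of KOSC-2-only regions on chromosome 13 had been seen, so all differences between the lines in it are given as values with no test. When each list was cut to its strongest 22504 peaks (equal length), the difference in share between the lines was 0.0378 percentage points instead of 0.182, and the lines overlapped. The domain then held 145, 105, 109 and 103 peaks in the KOSC-2 lists and 108, 121, 99 and 100 in the HSC-3 lists. Without replicate 1 of KOSC-2 at 0 Gy, the highest of these, the sign turned (0.470% in KOSC-2 and 0.475% in HSC-3, a difference of -0.00592 percentage points), an alternative chosen after seeing the data.

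Peaks of the domain were also narrower. The domain was chosen by its KOSC-2-only regions, so the width, background and strength of its peaks may not be independent of that choice in either line. The median width was 411 ± 13.4 bp in KOSC-2 against 470 ± 10.1 bp in the rest of the chromosome, and 418 ± 28.0 bp against 441 ± 15.8 bp in HSC-3 (SD, n = 4 each). Width was lower in 7 of 8 libraries and equal (457 bp) in the HSC-3 0 Gy library replicate 1, with a mean difference of -41.4 bp (exact two-sided permutation test, p = 0.0156, adjusted 0.0208). The background at the summit, relative to the lowest of the list, was 1.81 in the domain and 2.21 in the rest on average, lower in 8 of 8 libraries (difference -0.398, exact permutation p = 0.00781, adjusted 0.0156). At equal list length that difference was -0.0676 (exact permutation p = 0.609). The median percentile of −log10 p within a list, a measure of strength, differed by -4.28 points (exact permutation p = 0.0938, adjusted 0.0938, lower in 6 of 8 libraries). It was -5.55 points without the HSC-3 8 Gy library replicate 1 (exact permutation p = 0.0469 after adjustment), -0.659 points at equal list length (adjusted 0.609) and -3.11 points against all other chromosomes (adjusted 0.297). In KOSC-2 the domain's peaks stood at the 40.5 ± 4.24 percentile against 49.4 ± 1.68 in the rest, and in HSC-3 at 53.3 ± 3.64 against 53 ± 0.199 (SD, n = 4 each).

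Most members were called in KOSC-2 lists alone. Of 561 regions, 302 (53.8%) were called in at least 1 KOSC-2 list and in no HSC-3 list, against 32.0% of all regions and 30.4% in the rest of chromosome 13. The reverse held for 66 regions (11.8%, against 16.2% of all regions), and 193 were called in both lines. Those 193 made up 39.0% of the 495 regions called in KOSC-2 and 74.5% of the 259 called in HSC-3. In the rest of chromosome 13 the corresponding shares were 62.8% and 73.6%. Many calls rested on a single list, with 216 members (38.5%) called in 1 library, against 31.9% of all regions.

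Regions called in every library of a line are a part of the same members, so they are no separate support. In the domain 137 regions were called in 4 of 4 KOSC-2 libraries (24.4%, against 31.8% of all regions) and 66 in 4 of 4 HSC-3 libraries (11.8%, against 18.1%). Open in all 8 libraries were 49 (8.73%, against 15.9%). KOSC-2-only regions, called in 4 of 4 KOSC-2 and 0 of 4 HSC-3 libraries, numbered 39 (6.95%, against 2.07% of all regions and 2.47% in the rest of chromosome 13). The domain was chosen by clusters of this class, so the higher share restates that choice. All 39 also count among the regions above without an HSC-3 call. Of the regions called in every KOSC-2 library, 28.5% were thus KOSC-2-only in the domain, 8.07% in the rest of chromosome 13 and 6.52% over all chromosomes. HSC-3-only regions numbered 2 (0.357%, against 0.300%). Under the alternatives that follow, the share over all regions was not computed. Whether the domain's higher KOSC-2-only share holds there cannot be told from these counts. The KOSC-2-only count was 12 when all lists were of equal length and 68 when replicate 1 of KOSC-2 at 0 Gy was left out. The HSC-3-only count was 4 at equal length. It was 4 when replicate 1 of KOSC-2 at 0 Gy was left out, 1 when replicate 1 of HSC-3 at 0 Gy was, and 5 when replicate 1 of HSC-3 at 8 Gy was. Without the 3 libraries of lowest enrichment the counts were 71 KOSC-2-only, 18 HSC-3-only and 86 open in all 5 remaining libraries.

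**Figure D2:**
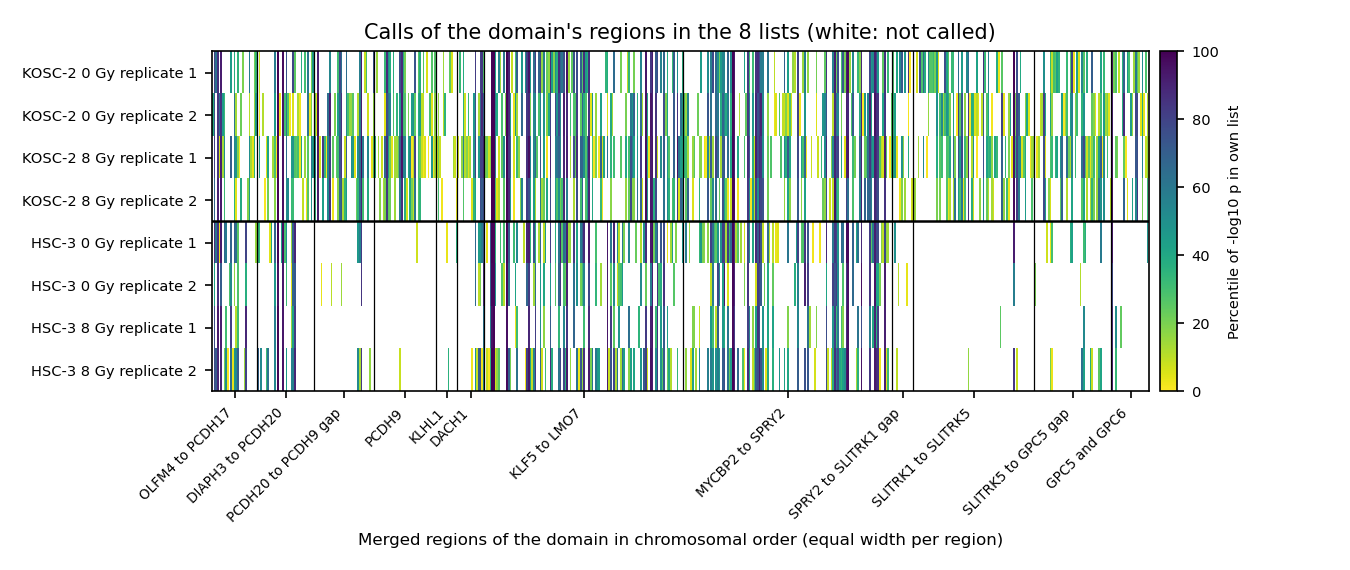
Each column is 1 of the 561 regions in chromosomal order and each row a library; the colour gives the percentile of −log10 p in the library's own list and white means not called. Vertical lines part the 12 bands; the HSC-3 rows are almost white from the PCDH20 to PCDH9 gap to KLHL1 and from the SPRY2 to SLITRK1 gap to SLITRK5, while both lines are filled from KLF5 to SPRY2.

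The bands fell into several kinds. Lack of overlap between the lines was not rare over the genome. Of 945 windows of 3 Mb described below, 18.4% had every KOSC-2 share of peaks above every HSC-3 share and 19.3% the reverse. For numbers of peaks, which depend on list length, no such rate was computed. The KLF5 to LMO7 band (73 to 77 Mb) had 65, 66, 77 and 67 peaks in the KOSC-2 lists and 63, 47, 33 and 72 in the HSC-3 lists. The MYCBP2 to SPRY2 band (77 to 81 Mb), which also holds EDNRB, a receptor for endothelin, had 59, 65, 79 and 56 against 74, 43, 44 and 67. In number of peaks the lines overlapped in both bands. As a share of the list they overlapped in KLF5 to LMO7, while in MYCBP2 to SPRY2 every HSC-3 list (0.155 to 0.196%) was above every KOSC-2 list (0.132 to 0.154%). At equal list length MYCBP2 to SPRY2 overlapped too, with 31 to 41 peaks in KOSC-2 and 37 to 44 in HSC-3.

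These 8 Mb held 244 of the 561 members and 40 of the 49 regions open in all 8 libraries. Grouping these bands was chosen after their values were seen. As a share of all peaks of a list, they held 0.301% ± 0.0166 in KOSC-2 and 0.344% ± 0.0276 in HSC-3 (SD, n = 4 each). The other 34 Mb of the domain held 0.346% ± 0.0292 in KOSC-2 and 0.121% ± 0.0180 in HSC-3, a ratio of 2.85. These values come from the full lists, which differ in length, and were not computed for the group at equal list length. For the whole domain, the line difference in share was then 0.0378 percentage points instead of 0.182. Of the 317 members there, 239 (75.4%) had no HSC-3 call, against 63 of 244 (25.8%) in the 8 Mb from KLF5 to SPRY2.

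**Figure D3:**
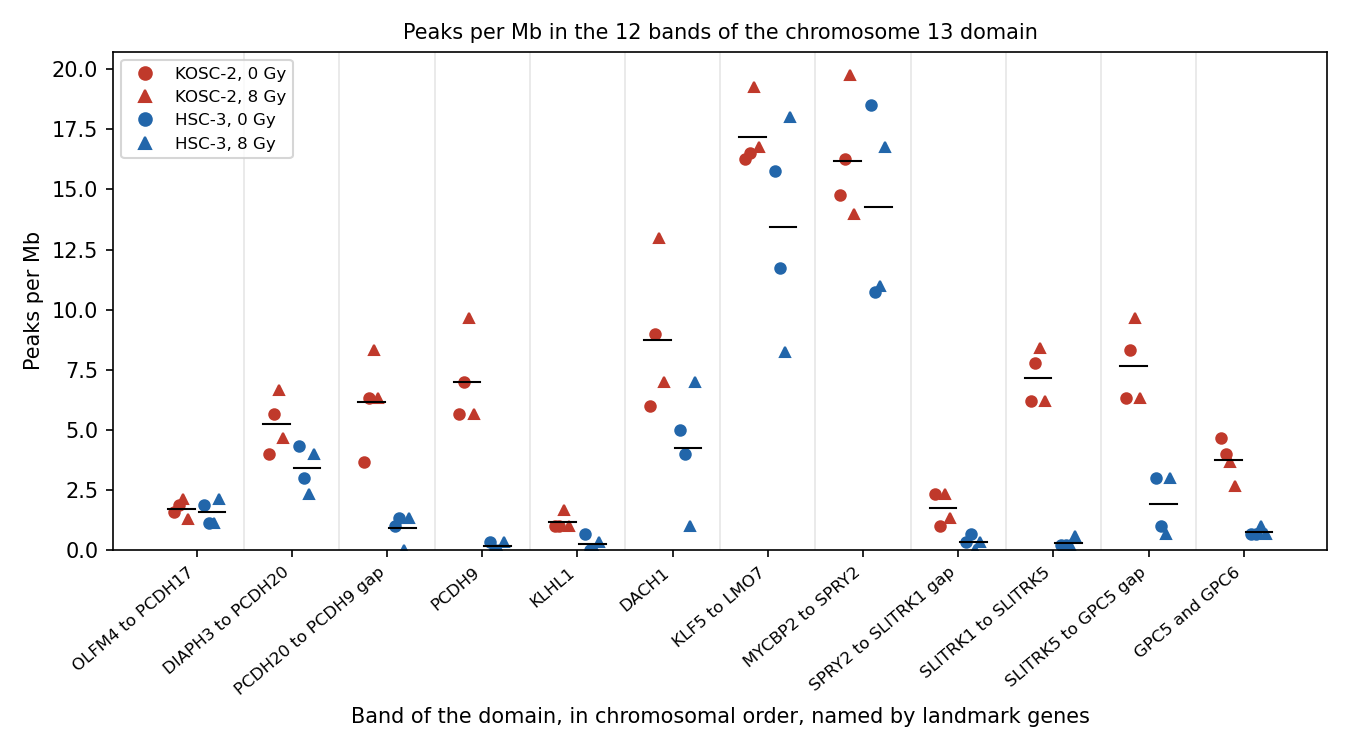
Peaks per Mb (y axis) in each band for the 8 libraries, with black bars at the mean of each line; circles are 0 Gy and triangles 8 Gy. In the PCDH9 and SLITRK1 to SLITRK5 bands every HSC-3 library lies near 0 (means 0.167 and 0.300) and KOSC-2 averages 7 and 7.15.

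The PCDH9 band (66 to 69 Mb) had the fewest HSC-3 peaks of the 12 bands and the highest ratio of mean peaks between the lines. KOSC-2 lists had 17, 21, 29 and 17 peaks there and HSC-3 lists 1, 0, 0 and 1. No list of either line came near those of the other. Of its 37 regions, 35 had no HSC-3 call, and 9 were KOSC-2-only. Of the 2 HSC-3 peaks, each in a region that no other HSC-3 list called, 1 fell in a region also called in KOSC-2. At equal list length KOSC-2 had 4 or 5 peaks per list and HSC-3 had 0 in all 4.

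The SLITRK1 to SLITRK5 band (84 to 89 Mb) was next by ratio, and the difference in number of peaks was larger there. It had 31, 39, 42 and 31 peaks in KOSC-2 (35.8 ± 5.62) and 1, 1, 1 and 3 in HSC-3 (1.5 ± 1, SD, n = 4 each), a ratio of 23.8. Of 72 regions, 68 had no HSC-3 call and 9 were KOSC-2-only. Cut to equal length, the KOSC-2 lists held 8 to 15 peaks and each HSC-3 list 1. Here too the lines did not overlap under either choice.

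The gap between PCDH20 and PCDH9 (63 to 66 Mb), for which RefSeq lists 2 coding genes that have placeholder names, had 11, 19, 25 and 19 peaks in KOSC-2 and 3, 4, 0 and 4 in HSC-3. At equal length it had 7 to 9 against 0 to 3. The gap between SLITRK5 and GPC5 (89 to 92 Mb) had 19, 25, 29 and 19 against 9, 3, 2 and 9, and the band of GPC5 and GPC6 (92 to 95 Mb) had 14, 12, 11 and 8 against 2, 2, 3 and 2. In these 3 bands the lines did not overlap in number, which depends on list length. At equal length the SLITRK5 to GPC5 gap overlapped (2 to 7 against 2 or 3), as did GPC5 and GPC6 (3 to 5 against 1 to 3).

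Other bands were poor in peaks in both lines or alike in them. KLHL1 (69 to 72 Mb) had 3, 3, 5 and 3 peaks in KOSC-2 and 2, 0, 0 and 1 in HSC-3, and 0 in every list at equal length. The gap between SPRY2 and SLITRK1 (81 to 84 Mb) had 7, 3, 7 and 4 against 1, 2, 0 and 1. In both, the lowest KOSC-2 list had 1 peak more than the highest HSC-3 list, and as a share of the list the SPRY2 to SLITRK1 gap overlapped between the lines. DACH1 (72 to 73 Mb) had 6, 9, 13 and 7 against 5, 4, 1 and 7, with overlap. At the proximal end, the OLFM4 to PCDH17 band (53 to 60 Mb) had 11, 13, 15 and 9 against 13, 8, 8 and 15. The band from DIAPH3, a formin that nucleates actin filaments, to PCDH20 (60 to 63 Mb) had 12, 17, 20 and 14 against 13, 9, 7 and 12, and both overlapped between the lines in number. As a share of the list, the OLFM4 to PCDH17 band did not overlap, with 0.0212 to 0.0290% in KOSC-2 and 0.0310 to 0.0355% in HSC-3. At equal list length, the OLFM4 to PCDH17 band had 4 to 6 peaks in KOSC-2 and 8 to 10 in HSC-3, without overlap.

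**Figure D4:**
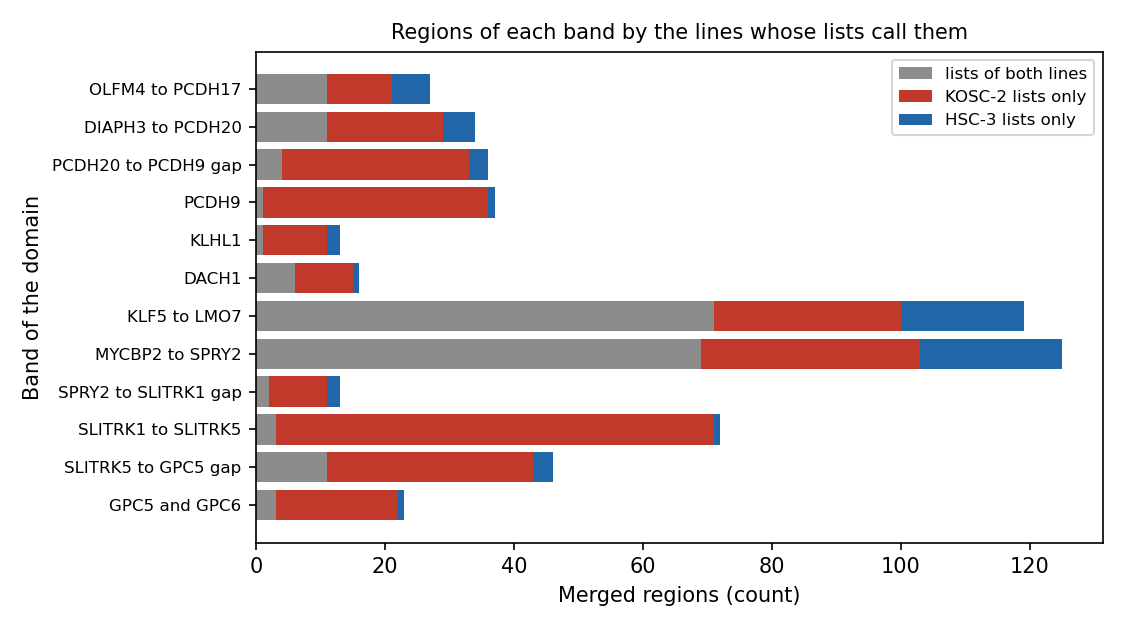
Number of merged regions in each band (x axis), split by whether lists of both lines, KOSC-2 lists only or HSC-3 lists only call them. KOSC-2 lists only make up 35 of 37 regions in the PCDH9 band and 68 of 72 from SLITRK1 to SLITRK5, against 29 of 119 in the KLF5 to LMO7 band and 34 of 125 in the MYCBP2 to SPRY2 band.

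Libraries of like list length and depth were set side by side. The KOSC-2 8 Gy library replicate 2 had 42407 peaks and 24.3 reads per 10 kb, and the HSC-3 0 Gy library replicate 1 had 41926 peaks and 27.0 reads per 10 kb. The former had 17 peaks in the PCDH9 band and 31 from SLITRK1 to SLITRK5, and the latter 1 and 1. In the 8 Mb from KLF5 to SPRY2 they had 123 and 137. The HSC-3 8 Gy library replicate 2, with 43089 peaks and 20.7 reads per 10 kb, had 1, 3 and 139. Both HSC-3 lists had fewer peaks than this KOSC-2 list in the PCDH9 and SLITRK1 to SLITRK5 bands and more from KLF5 to SPRY2.

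To set the domain beside the genome, windows of 3 Mb were formed, of which 945 held at least 20 peaks over the 8 lists, to give the domain's contrast a scale. The mean share of peaks was at least 4 times higher in KOSC-2 than in HSC-3 in 23 windows (2.43%) and at least 4 times higher in HSC-3 in 0 (0.00%). Of the 10 such windows inside the domain, 4 were among the 23, from 63 to 69 Mb and from 84 to 90 Mb. Chromosome 4 held 5 of the 23 windows, the highest number of any chromosome, and chromosome 13 followed with these 4. The domain was chosen with this contrast in view, so the count carries no test. Windows with every KOSC-2 share above every HSC-3 share numbered 174 (18.4%), 5 of them among the domain's 10, and the reverse 182 (19.3%), 1 of them there. In the 3 windows from 72 to 81 Mb, around KLF5 to SPRY2, the KOSC-2 mean share was 1.07, 0.785 and 0.854 times that of HSC-3.

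The number of copies of the domain in each line was not measured. At the 49 regions open in all 8 libraries, the median pileup relative to the lowest background of the list was 1.12, 1.17, 1.21 and 1.0 times that of the shared regions in the rest of chromosome 13 in KOSC-2, and 1.26, 1.14, 1.07 and 1.05 times in HSC-3. The lines overlapped in this ratio. It speaks mostly for the middle of the domain, since 9 of these 49 regions lie outside the 8 Mb from KLF5 to SPRY2. Its part in the difference between the lines in the other bands was not tested.

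KOSC-2-only regions of the domain stood in runs. The domain was chosen by such clusters, so the runs restate that choice and are no support for it. Runs outside the domain were not counted. Among regions called in 4 of 4 libraries of a line, 3 runs of 6 KOSC-2-only regions were found. The proximal run, chr13:62239387-64650373, began in the DIAPH3 to PCDH20 band and ended in the PCDH20 to PCDH9 gap, where the 20 regions of any kind had 43 calls in KOSC-2 and 2 in HSC-3. Its members chr13:64649085-64649462 and chr13:64649661-64650373 were close neighbours, counted as separate regions. The next region after them, chr13:64652136-64653089, was called in 4 KOSC-2 lists and 1 HSC-3 list, which ended the run. The second, chr13:67508045-72637134, ran from the PCDH9 band to the DACH1 band over 5.13 Mb, with 71 and 4 calls in 38 regions. Its last region, chr13:72636698-72637134, stood apart in the DACH1 band. The others lay within chr13:67508045-67882618, and the KLHL1 band between held 0 KOSC-2-only regions. The distal run, chr13:85053782-86084242, lay in the SLITRK1 to SLITRK5 band and held 16 regions with 43 KOSC-2 and 0 HSC-3 calls. A tight group of 4 KOSC-2-only regions lay within 0.0309 Mb in the PCDH9 band, at chr13:67209621-67240526, and these were the only regions of that interval. The runs of 3 or more, 5 in number, held 25 of the 39 KOSC-2-only regions. HSC-3-only regions formed no run longer than 1.

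Stretches without peaks were read from the same calls as the runs, so they are no support either. In HSC-3 the longest stretch of the domain free of peaks in all 4 lists was chr13:81894027-86160445 (4.27 Mb), in which KOSC-2 lists made 70 calls in 36 regions, 6 of them in all 4 libraries. The second was chr13:67812778-71599563 (3.79 Mb), with 33 KOSC-2 calls in 17 regions. The third, chr13:53824790-56998348 (3.17 Mb), was empty in both lines. In KOSC-2 the longest was chr13:53776624-57309720 (3.53 Mb), with 5 HSC-3 calls in 2 regions. The next 2, chr13:57475307-59364222 and chr13:92120961-93658004, had no HSC-3 call either. Stretches of at least 1 Mb numbered 10 in HSC-3, covering 23.9 Mb, and 3 in KOSC-2, covering 6.96 Mb. They come from the full lists, which differ in length. Stretches were not measured at equal list length or outside the domain.

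The strength of KOSC-2-only regions was moderate. Their mean percentiles had a median of 43.4 (quartiles 35.0 and 64.7), against 43.4 over all KOSC-2-only regions. Those named are the strongest of their class. The leading region lay in the PCDH20 to PCDH9 gap, at chr13:63216987-63217596 (610 bp), with percentiles of 90.4, 96.9, 93.1 and 92.5 and the authors' fold enrichment of 12.6 to 16.9. Its pileup at the summit was 50 to 73 reads in KOSC-2, and no HSC-3 list called it. Both next regions were in the PCDH9 band. The region at chr13:67508045-67508713 stood at the 87.3, 90.9, 94.2 and 86.0 percentile, with fold values of 12.9 to 15.4. The region at chr13:67231156-67231785, part of the tight group of 4, stood at 87.4, 76.0, 87.2 and 83.2. In each KOSC-2 list these 3 regions were stronger than at least 76.0% of the peaks. The gap also held chr13:64009715-64010801 (mean percentile 78.4) and chr13:64649661-64650373 (71.6). In the SLITRK5 to GPC5 gap the strongest region called in at least 4 libraries was chr13:89815131-89815781, also KOSC-2-only (71.4).

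The strongest region of the SLITRK1 to SLITRK5 band was an exception there. At chr13:87776223-87777202 (980 bp) it stood at the 99.9, 98.9, 95.6 and 97.9 percentile in KOSC-2. HSC-3 lists called it in 3 of 4 libraries, at the 91.9, 57.4 and 84.2 percentile, and not in the 8 Gy library replicate 1. It was the sole region of the band in more than 1 HSC-3 list.

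The regions open in all 8 libraries were strong, with a median over regions of the mean percentile of 78.8, against 76.1 over all such regions of the genome. Of the 5 strongest, 4 lay in the bands KLF5 to LMO7 and MYCBP2 to SPRY2, at chr13:73355526-73356582 (mean percentile 99.1), chr13:73301149-73302519 (98.9), chr13:77565546-77567069 (98.6) and chr13:73632603-73634007 (98.2). The fifth was in the DIAPH3 to PCDH20 band, at chr13:60737101-60738606 (98.2). The lowest percentile of any of these 5 in any list was 95. In the OLFM4 to PCDH17 band the strongest was chr13:53226072-53227470 (88.2), in DACH1 chr13:72964944-72965483 (67.2), and at the border of the GPC5 band chr13:91999421-92001537 (90.8, 2117 bp). All were called in 8 of 8 libraries, while the KLHL1 band and the SPRY2 to SLITRK1 gap held no region in 4 or more lists.

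The HSC-3-only regions were chr13:56998349-56998939 in the OLFM4 to PCDH17 band (mean percentile 71.4) and chr13:78271688-78272819 in the MYCBP2 to SPRY2 band (28.1). The former lies at the end of the stretch that was empty in both lines and stood at the 79.3, 37.3, 89 and 80.1 percentile of the HSC-3 lists. At the edges of the domain, the nearest member inside 53 Mb was called in 1 KOSC-2 list and the nearest region outside it in 4 KOSC-2 and 3 HSC-3 lists. At 95 Mb the nearest member was called in 1 KOSC-2 list and the nearest region outside in 2 lists of each line.

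The second comparison was between 0 and 8 Gy. The share of peaks in the domain was 0.667% and 0.642% in the KOSC-2 0 Gy lists and 0.681% and 0.599% in the 8 Gy lists, and the doses overlapped. In HSC-3 it was 0.446% and 0.524% at 0 Gy and 0.440% and 0.450% at 8 Gy, also with overlap. Averaged over lines, it differed by -0.0272 percentage points between 8 and 0 Gy (exact two-sided permutation test within lines, p = 0.444, smallest possible 0.0556). With these groups the test cannot reach 0.05.

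A region was counted as gained where both 8 Gy lists of a line called it and neither 0 Gy list did, and as lost in the reverse case. In KOSC-2, 21 members were gained (3.74%, against 3.51% of all regions) and 12 lost (2.14%, against 0.870%). In HSC-3, 2 were gained (0.357%, against 0.680%) and 3 lost (0.535%, against 0.957%). The gained share in KOSC-2 was near that of all regions. Of the gained KOSC-2 regions, 4 lay in the PCDH20 to PCDH9 gap and 5 from MYCBP2 to SPRY2. The strongest was chr13:63758785-63759256, at the 82.0 and 43.1 percentile of the 8 Gy lists, followed by chr13:67693711-67694134 in the PCDH9 band (53.3 and 39.8). The strongest lost in KOSC-2 were chr13:85682524-85683000 in the SLITRK1 to SLITRK5 band (75.9 and 30.4 at 0 Gy) and chr13:73908536-73908977 in the KLF5 to LMO7 band (68.0 and 30.2). In HSC-3 the gained regions were chr13:92050637-92051444 and chr13:77096151-77096531, and the lost were led by chr13:80310195-80310956 and chr13:74003750-74004382. All 4 were also called in 2 or more KOSC-2 lists.

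Most of these counts moved when a library of the same line was left out, which leaves fewer lists to meet the rule. Shares over all regions were not computed for the counts that follow. KOSC-2 gained numbered 28 without the 0 Gy library replicate 1, 63 without the 0 Gy library replicate 2, 46 without the 8 Gy library replicate 1 and 98 without the 8 Gy library replicate 2. KOSC-2 lost numbered 57 and 59 without the 0 Gy libraries replicate 1 and 2 and 31 and 13 without the 8 Gy libraries replicate 1 and 2. HSC-3 gained numbered 17 and 2 without the 0 Gy libraries replicate 1 and 2, and 53 and 8 without the 8 Gy libraries replicate 1 and 2. HSC-3 lost numbered 17, 50, 6 and 26 without the 4 libraries in that order. At equal list length, 4 regions were gained and 7 lost in KOSC-2.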

How the data were processed

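ATAC-seq peak lists of 8 libraries were analysed, 2 for each line and dose, grouped and numbered by their titles. Per the submitters' processing notes, MACS2 2.2.6, Bowtie2 2.3.4.2, deepTools, FastQC 0.11.7 and SAMtools 1.9 were used with build hg19. Their parameters, duplicate removal and any Tn5 shift are not given there. Lists came per sample, and no pooling is stated. For each peak the authors deposited a score (10 times the −log10 q-value without decimals), a ratio (fold enrichment at the summit over the library's own background), a −log10 q-value and −log10 p-value, and the summit's offset. These values are relative to 1 library and were used within a list.

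Analyses were kept to chromosomes 1 to 22 and X. Percentiles rank −log10 p within a list. Pileup and background were solved from fold and p, with 100% of peaks matching a whole pileup within 0.0001. Depth is the lowest background, scaled from 300 bp to 10 kb. Regions went to bands by their midpoint.

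Measures of the domain and of the rest of chromosome 13 (53.6 Mb between the outermost peaks) were exchanged within libraries, and doses within lines, in exact two-sided permutation tests with a threshold of 0.05. Regions named are the 5 strongest KOSC-2-only, HSC-3-only and shared ones by mean percentile, the strongest per band, 2 gained and 2 lost per line, and the 3 longest runs and empty stretches. Runs beyond the 3 longest, the grouping of bands and the 3 Mb windows were chosen after their values were seen. The domain, bands, lists and tests were chosen with earlier results of these data known. Alternatives were a −log10 q of at least 5, equal lists, 50% of a region covered, calls in 3 of 4 libraries, a domain of 55 to 93 Mb, other comparators, a replicate block and libraries left out. Functions were tested on simulated lists. Analyses ran in Python 3.11.15 (matplotlib 3.10.9, scipy 1.17.1, numpy 2.4.6 and pandas 2.3.3).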

Additional observations from a re-analysis of the deposited data

Results flagged for a closer look

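Each measure of the domain was searched, within a line's 4 libraries, for a library that stood apart by Dixon's criterion. This occurred in 3 of 36 sets, and chance alone yields about 1 in 20. The HSC-3 0 Gy library replicate 2 had 0.524% of its peaks in the domain, against 0.440 to 0.450% in the other HSC-3 libraries, which is still under the lowest KOSC-2 value of 0.599%. Replicate 1 of KOSC-2 at 8 Gy, whose list was the longest, had a median peak width of 431 bp in the domain, against 402 to 406 bp in the other KOSC-2 libraries. The KOSC-2 8 Gy library replicate 2 had 0.0212% of its peaks in the OLFM4 to PCDH17 band, against 0.0286 to 0.0290% in the others, and this rests on 9 peaks.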

How the results depend on the processing

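At equal list length, the difference in background was -0.0676, that in percentile -0.659 (adjusted exact permutation p = 0.609 for both), the line difference in the share of peaks 0.0378 percentage points, and the counts were 12 (KOSC-2-only) and 4 (HSC-3-only), with 4 gained and 7 lost in KOSC-2 and 6 lost in HSC-3. With equal lists and without replicate 1 of KOSC-2 at 0 Gy, chosen after seeing the data, the line difference was -0.00592. With calls in 3 of 4 libraries (7 of 8 for shared regions), the counts were 81 KOSC-2-only, 7 HSC-3-only and 81 shared. As a share of the peaks on chromosome 13, the lines differed by 7.05 percentage points (24.6% and 17.6%), a change of denominator. With a −log10 q of at least 5 the difference in percentile was -4.67 (exact permutation, adjusted p = 0.0391). Without the 3 libraries of lowest enrichment, exact tests over the 5 that remain cannot pass (smallest p 0.0625): density differed by -10.6 peaks per Mb, width by -39.4 bp and background by -0.465. The dose difference turned to 0.000995, and the counts were 71 KOSC-2-only, 18 HSC-3-only, 86 shared, 57 lost in KOSC-2, and 56 gained and 54 lost in HSC-3. That alternative leaves 1 library per dose in HSC-3 and 1 at 0 Gy in KOSC-2, so a region needs fewer calls. Under none of the alternatives was the share of a class over all regions computed.

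Leaving out each library in turn gave -9.92 to -9.19 peaks per Mb, -47.3 to -36.6 bp, -5.55 to -3.12 percentile points, background differences of -0.444 to -0.371, dose differences of -0.0477 to -0.00668 and line differences of 0.171 to 0.202 percentage points. Counts ranged over 39 to 68 KOSC-2-only, 1 to 5 HSC-3-only and 49 to 66 shared regions, 21 to 98 gained and 12 to 59 lost in KOSC-2, and 2 to 53 gained and 3 to 50 lost in HSC-3. Replicate numbers are not said to mark a shared batch. Deviations of same-numbered libraries over the 12 bands correlated at -0.373 in KOSC-2 and 0.281 in HSC-3. With the replicate block the dose difference of -0.0272 had an exact permutation p of 0.375 (smallest 0.125), and the same value with the KOSC-2 numbers crossed, an alternative chosen after seeing the data. Depth limits calls to pileups of 5 to 9 reads or more.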

Other observations

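At the region chr13:91999421-92001537, at the border of the GPC5 band, the background around the summit was among the highest of the named regions, at 7.39 to 18.3 times the lowest of the list in KOSC-2 and 5.32 to 12.4 times in HSC-3. At the region chr13:64649661-64650373, KOSC-2-only in the PCDH20 to PCDH9 gap, it was 3.62 to 13.1 times, and the authors' fold enrichment there was 4.98 to 6.71, lower than at the other 4 named KOSC-2-only regions.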
